A study of Mus musculus with 24 samples.

Results

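Glioma cells of 4 mice with early symptoms were compared with glioma cells of 4 mice that showed none when they were killed. These 8 libraries are all early symptomatic and asymptomatic glioma libraries among the 24 of the series, chosen by the letters that end their labels. All tumours came from PDGFB delivered to the embryonic forebrain in utero, by somatic gene transfer in the telencephalic ventricles. Brains were taken after transduction, tumours were dissected under fluorescence, and fluorescent glioma cells were sorted from surrounding cells without fluorescence. The asymptomatic tumours, named here by their codes, were 3228A, 3228B and 3228D at 33 days and 3229B at 34 days. Those with early symptoms were 3145A (35 days), 3108C and 3108D (43 days each) and 3109D (50 days). Strain and sex are not given in the labels, and gliomas without PDGFB were not analysed here. Stage, day and the number that opens a code cannot be told apart, because no day and no such number occurs in both groups. Each glioma library is 1 tumour, so the spread below is between tumours.

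PDGFB is a ligand of the PDGF receptors, and the receptor Pdgfra is carried by oligodendrocyte progenitor cells (OPCs), the dividing precursors of the myelin-forming cells of the brain. Activity of the receptor drives division and holds back maturation of these cells, through MAP kinase and phosphoinositide signalling. Gliomas driven by PDGFB are known for OPC genes such as Olig2, Sox10 and Ptprz1.

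Library totals lay between 9492796 and 14231701 counts, and every pair of libraries of a group differed far beyond counting error. Markers of the OPC lineage were high in all 8 libraries: Pdgfra lay between 3314 and 6296 CPM (counts scaled to the size of the library) and Olig2 between 469 and 716 CPM. They do not mark the sorted cells alone: surrounding cells of the same brains held 1159.5 to 3810 CPM of Pdgfra and 170.3 to 435 CPM of Olig2 on the scale of the 24 libraries, with glioma cells higher by 1.09 and 1.07 on the log2 scale. T and NK cell and neutrophil markers were too low to be tested. Tumour 3108C stood apart from the other 7, with a score of -31.4 on a first principal component that held 38.1% of the variance of the 500 most variable genes, while the others lay between -7.06 and 10.9. Values without it are given below for several of the results it leads. The female transcript Xist was high in 3108C, 3108D, 3145A and 3228A and near 0 in the other 4, so 3 of 4 early symptomatic but 1 of 4 asymptomatic tumours expressed it. A fit with a sex term is therefore given beside the counts. Glioma libraries 3108D and 3109D matched each other's surrounding library better than their own, so which of these codes a value belongs to is uncertain, although both are early symptomatic.

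No gene was called different between the stages. Of 16494 genes tested, 0 were called at an adjusted p of 0.05 by edgeR's quasi-likelihood test, a share of 0%, and the smallest adjusted p was 0.936. At an unadjusted p under 0.05 there were 810 genes, or 4.91% of those tested, of which 439 were higher and 371 lower in early symptomatic gliomas. DESeq2 called 0 genes as well: its lowest adjusted p was 0.05704, and 1000 of its genes fell under 0.05 before adjustment. limma voom with sample weights called 1 gene, Lrtm2. Without 3108C edgeR called 0 genes and 493 had an unadjusted p under 0.05, and with the sex term it called 0 and 568 did. The median log2 fold change of all genes was 0.02.

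The data bound the size of change that each gene could have had. For every gene a 95% interval of the log2 fold change, early symptomatic minus asymptomatic, was computed from the same fit, and a gene was counted as bounded when the whole interval lay inside a stated fold in both directions. Inside 2-fold lay 9243 of 16494 genes (56%), inside 1.5-fold 3648 (22.1%), inside 3-fold 12746 (77.3%) and inside 4-fold 14256 (86.4%). The median distance from the estimate to the end of its interval was 0.64 on the log2 scale, which is 1.56-fold. A test of equivalence against 2-fold, with Benjamini-Hochberg adjustment across the 16494 genes, gave 9461 genes (57.4%). It joined 1-sided tests of both bounds at an adjusted p under 0.05. Before adjustment that level is looser than the 95% interval, so the counts cannot be compared directly. The intervals themselves are per gene and not adjusted.

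The bound followed the level of the gene. Among the 10355 genes with a mean of at least 3 log2 CPM over the 8 tumours, 8404 (81.2%) lay inside 2-fold and 9783 (94.5%) inside 3-fold. Among the 3409 genes at 6 log2 CPM and over, 3039 (89.1%) lay inside 2-fold. Among the 2997 genes under 1 log2 CPM it was 30 genes, with a median half-width of 1.45. A change beyond 3-fold was thus outside the interval of nearly all well expressed genes, while the intervals of weakly expressed genes reached past 2-fold.

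**Figure D1:**
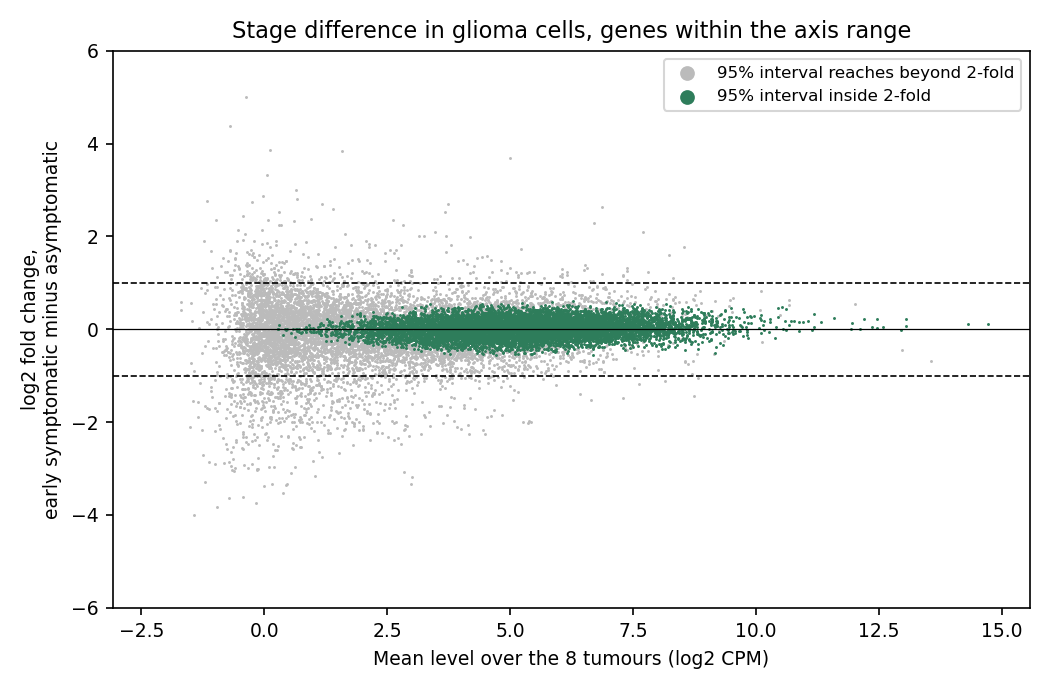
Each point is 1 gene, with its mean level over the 8 tumours in log2 CPM on the horizontal axis and its log2 fold change, early symptomatic minus asymptomatic glioma, on the vertical axis; dashed lines mark 2-fold, and 6 genes past the axis limits are not shown. Green points are the 9243 genes whose 95% interval lay inside 2-fold, and they fill the middle of the panel at means over about 3 log2 CPM.

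The most tightly bounded genes were Glyr1, a nuclear cofactor of chromatin, Ss18, a subunit of the BAF chromatin remodeller, Rala, a small GTPase, Slc25a12, a mitochondrial aspartate and glutamate carrier, Vps26b, a retromer subunit, and Vapb, an endoplasmic reticulum tether. Glyr1 stood at 145, 148, 139 and 150.3 CPM in the early symptomatic group, whose values are given here and below in the order 3108C, 3108D, 3109D, 3145A. In asymptomatic tumours 3228A, 3228B, 3228D and 3229B, in this order here and below, it stood at 144, 151, 142 and 149.7 CPM. Its levels overlapped fully, and its log2 fold change was -0.01 with an interval from -0.26 to 0.24. For Ss18 the value was 0.01 (-0.24 to 0.26) and for Rala -0.09 (-0.34 to 0.16).

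Of a panel of 21 genes of glioma biology, 10 were bounded within 2-fold, beside 56% of all genes tested. At 3 log2 CPM and over the share of all genes was 81.2%. Most of the 10 were OPC genes. Pdgfra, the receptor through which PDGFB acts on OPCs, measured 6296, 4520, 4867 and 4649 CPM in early symptomatic and 3982, 3314, 5299.9 and 4923 CPM in asymptomatic gliomas. The groups overlapped, with 3108C highest and 3228B lowest, and the log2 fold change was 0.21 (95% interval -0.20 to 0.63), or 0.08 without 3108C. Olig2, the transcription factor of the oligodendrocyte lineage, had 0.18 (-0.16 to 0.52), and its partner Olig1 0.05 (-0.45 to 0.55). Ptprz1, a receptor phosphatase of OPCs, had 0.03 (-0.39 to 0.45) and Cspg4, the NG2 proteoglycan, 0.24 (-0.23 to 0.70). Sox10, which drives the oligodendrocyte programme, had 0.30 (-0.18 to 0.78, the estimate being 0.10 without 3108C), and the stem cell factor Sox2 had -0.03 (-0.51 to 0.46). Mycn (0.13), the ligand Pdgfa (-0.27) and the tumour suppressor Trp53 (-0.08) were bounded too.

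The other 11 panel genes had intervals that reached past 2-fold, so the data leave room for a larger change in them. Mki67, a marker of dividing cells, measured 307, 297, 329 and 359.5 CPM in early symptomatic and 959, 799.7, 347 and 564 CPM in asymptomatic gliomas. Its early symptomatic tumours lay close together and below 3 of the 4 asymptomatic ones, with 3228D among them, and the log2 fold change was -1.05 (-2.36 to 0.26). Top2a, the topoisomerase of dividing cells, had -0.89 (-2.05 to 0.27). Pdgfb measured 111.7, 60.95, 41.1 and 60.2 CPM in early symptomatic and 49.5, 61.02, 41.6 and 30.9 CPM in asymptomatic gliomas. The groups overlapped, with 3108C far above the rest. Its log2 fold change was 0.58 (-0.10 to 1.27), 0.22 without 3108C and 0.24 with the sex term, and whether reads of the transferred gene count toward it is not given in the sources used here. The cell cycle inhibitor Cdkn2a had 0.65 (-0.44 to 1.74), the growth factor Vegfa 0.45 (-0.89 to 1.80), Egfr 0.46 (-0.69 to 1.62) and Myc -0.38 (-1.15 to 0.39).

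Cdkn1a, the p53 target that codes for the inhibitor p21, was the panel gene with an interval that left out 0. It measured 369, 93.1, 91.6 and 139 CPM in early symptomatic and 65.9, 98.1, 22.4 and 77.6 CPM in asymptomatic gliomas. The groups overlapped through 3228B, and 3108C was far above the rest. The log2 fold change was 1.39 (0.23 to 2.55), and without 3108C it was 0.69 and no longer had an unadjusted p under 0.05.

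**Figure D2:**
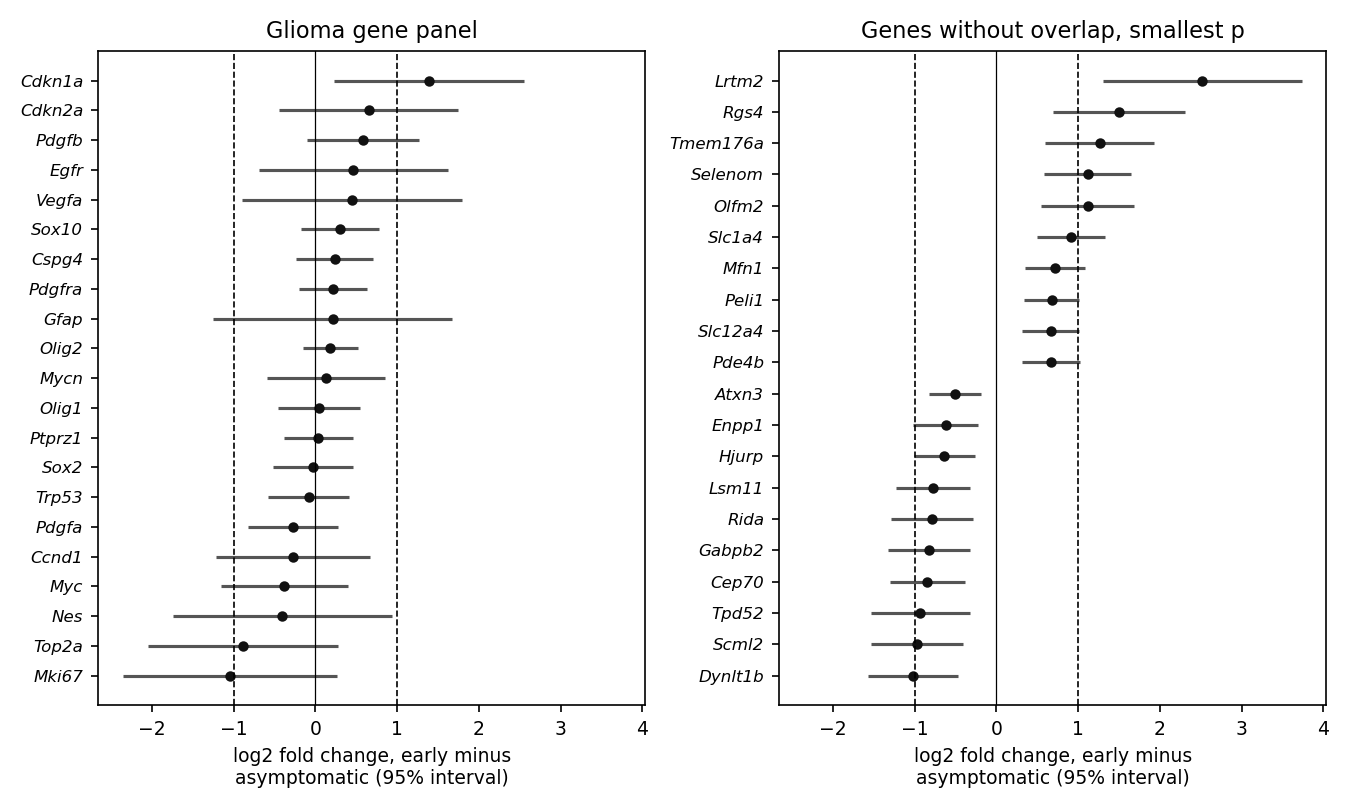
Points are log2 fold changes, early symptomatic minus asymptomatic glioma, and bars are 95% intervals; the left panel holds the 21 genes of the glioma panel and the right panel 20 genes whose groups did not overlap. Dashed lines mark 2-fold: 10 of the 21 panel genes lie inside them, and on the right Atxn3 alone does.

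Groups that did not overlap were seen for 398 genes with every early symptomatic tumour above every asymptomatic one, 2.41% of the genes tested, and for 421 genes the other way round, 2.55%. The 10 genes of each direction with the smallest unadjusted p, at a mean of at least 3 log2 CPM, are described here, and none of them was called by edgeR. Slc1a4, a transporter of serine, alanine and cysteine, measured 150.03, 112, 109 and 164 CPM in early symptomatic and 67.8, 80.7, 64.4 and 70.5 CPM in asymptomatic gliomas. Its lowest early symptomatic value exceeded the highest asymptomatic one, with a log2 fold change of 0.91 ± 0.19 (SE, n = 4 per group) and an unadjusted edgeR quasi-likelihood p of 0.000374. Lrtm2, a membrane protein with leucine-rich repeats, had the largest difference of these genes. It measured 58.0, 29.9, 27.4 and 13.9 CPM in early symptomatic and 6.398, 4.48, 6.49 and 5.14 CPM in asymptomatic gliomas. The log2 fold change was 2.52 ± 0.56, and the adjusted p was 0.936 by edgeR and 0.0348 by limma voom.

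The other 8 genes of that direction had smaller or noisier differences. Rgs4, which damps G protein signalling, measured 36.5, 30.7, 21.5 and 24.5 CPM against 13.4, 11.7, 5.31 and 9.58 CPM, a log2 fold change of 1.499 ± 0.37. Tmem176a, a membrane protein, had 1.26, the endoplasmic reticulum selenoprotein gene Selenom 1.12 and Olfm2, a secreted olfactomedin, 1.12. Mfn1, a GTPase of mitochondrial fusion, had 0.72, Peli1, a ubiquitin ligase, 0.68, Slc12a4, a potassium and chloride cotransporter, 0.67, and Pde4b, a cyclic AMP phosphodiesterase, 0.66.

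Lower in every early symptomatic tumour, but not called, were genes of other roles. Dynlt1b, a dynein light chain, measured 18.4, 16.3, 13.7 and 28.7 CPM in early symptomatic and 39.4, 45.02, 42.4 and 29.5 CPM in asymptomatic gliomas, a log2 fold change of -1.02 ± 0.25. Its groups were separated by less than 1 CPM, between 3145A and 3229B. Hjurp, the chaperone that loads the centromeric histone, measured 110.02, 106, 107 and 133 CPM against 207, 169.7, 164 and 169 CPM, a log2 fold change of -0.64 ± 0.17. Scml2, a Polycomb protein, had -0.97, Tpd52 -0.93, the centrosomal gene Cep70 -0.85, Gabpb2, a subunit of a GA-binding factor, -0.83, and Rida, a deaminase, -0.79. Lsm11, of the histone RNA processing complex, had -0.78, Enpp1, a phosphodiesterase of extracellular nucleotides, -0.62, and Atxn3, a deubiquitinase, -0.51.

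Lists of cell type markers and pathways held 0 called members among 428 memberships tested in 29 lists, against 0% of all genes. OPC markers were the steadiest of the cell type lists: 18 of 18 were tested and 13 were bounded within 2-fold. None had an unadjusted p under 0.05, and the median log2 fold change was 0.13. At a mean of 3 log2 CPM and over, where all 18 lay, a larger share of all genes was bounded, 81.2%. The median SD of the OPC markers over the 8 tumours was 0.36, beside 0.29 for all genes at that level. They were thus steady beside other cell types but not beside genes of like level. Of 22 oxidative phosphorylation genes, the nuclear-coded parts of the respiratory chain and ATP synthase, all 22 were bounded within 2-fold, with a median of 0.23. Of 26 ribosomal protein genes 25 were, with a median of 0.13. For PDGF and MAPK response genes the median was 0.17, and 14 of 20 were bounded. At an unadjusted p under 0.05, beside 4.91% of all genes in both directions, 2 of the 20 were higher. These were Spry1, a feedback inhibitor of receptor kinases (0.63 ± 0.22, no overlap), and Etv4, a transcription factor downstream of ERK (0.63 ± 0.27). Without 3108C the Spry1 value was 0.40 and that of Etv4 0.25, and neither had an unadjusted p under 0.05.

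Genes of cell division were lower in early symptomatic tumours by estimate, but 0 were called and almost none was bounded. All 26 mitosis genes had a log2 fold change below 0, with a median of -0.72 beside 0.02 for all genes, and 1 had an unadjusted p under 0.05, beside 4.91% of all genes. That gene was Kif2c, a microtubule depolymerase, with 16.4, 12.4, 13.6 and 24.8 CPM against 41.0, 38.4, 17.9 and 43.0 CPM. The groups overlapped through 3145A, the highest early symptomatic tumour, and 3228D, the lowest asymptomatic one, and the log2 fold change was -1.06 ± 0.47. Cenpe, a kinesin of the kinetochore, had -1.20 and was the list's one gene without overlap, 1 of 26 beside 2.55% of all genes. All 26 DNA replication genes were below 0 as well, with a median of -0.68 and 1 gene at an unadjusted p under 0.05, the polymerase gene Pole (-1.10 ± 0.47).

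The tumours did not sort by stage for these lists. The mean level of the mitosis genes was 5.26, 4.93, 5.06 and 6.04 log2 CPM in early symptomatic and 6.39, 6.18, 5.35 and 6.44 log2 CPM in asymptomatic gliomas. Tumours 3145A and 3228D each lay on the other group's side. For DNA replication genes the means were 3.57, 3.95, 4.91 and 5.47 log2 CPM against 5.73, 5.63, 4.87 and 5.10 log2 CPM, with 3108C lowest. Without 3145A the list medians were -1.07 for mitosis and -1.14 for DNA replication, and without 3108C they were -0.68 and -0.47.

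Markers of microglia were lower in early symptomatic tumours by estimate, with 0 called, and their part in the results above was not tested. Of the 16 microglia markers 15 were below 0, 9 lay below every asymptomatic library, beside 2.55% of all genes, 1 had an unadjusted p under 0.05, beside 4.91%, and the median was -1.84. Their summed level was 223, 199, 323 and 211 CPM in early symptomatic and 479, 646, 319.6 and 972 CPM in asymptomatic gliomas, and every early symptomatic tumour except 3109D lay below all asymptomatic ones. Cx3cr1, the fractalkine receptor of microglia, measured 3.71, 11.8, 19.99 and 10.5 CPM against 40.4, 64.3, 24.1 and 79.1 CPM, with no overlap and a log2 fold change of -2.17 (-4.84 to 0.49). In sorted bulk cells fewer cells of a type and less RNA per cell cannot be told apart. With the microglia markers as a covariate, edgeR called 0 genes and 1808 had an unadjusted p under 0.05.

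Blood and myelin genes were lower by estimate as well. Of 6 erythrocyte markers 4 were lower at an unadjusted p under 0.05, beside 4.91% of all genes in both directions. The list median was -3.02, and none of the markers was called. Without 3108C, 2 of them were lower at that p. Hbb-bs, a beta globin, measured 0.186, 9.34, 7.50 and 0.630 CPM against 18.4, 13.3, 24.04 and 119 CPM, so that 3229B was far above the rest. Without 3229B the erythrocyte median was -1.67. Hbb-bs was higher in surrounding than in glioma cells, with a glioma minus surrounding value of -3.44 on the log2 scale over all stages. Its stage difference in surrounding cells was -4.10. Of 13 mature oligodendrocyte markers 12 were below 0, none had an unadjusted p under 0.05, and the median of -0.78 became 0.02 without 3229B.

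**Figure D3:**
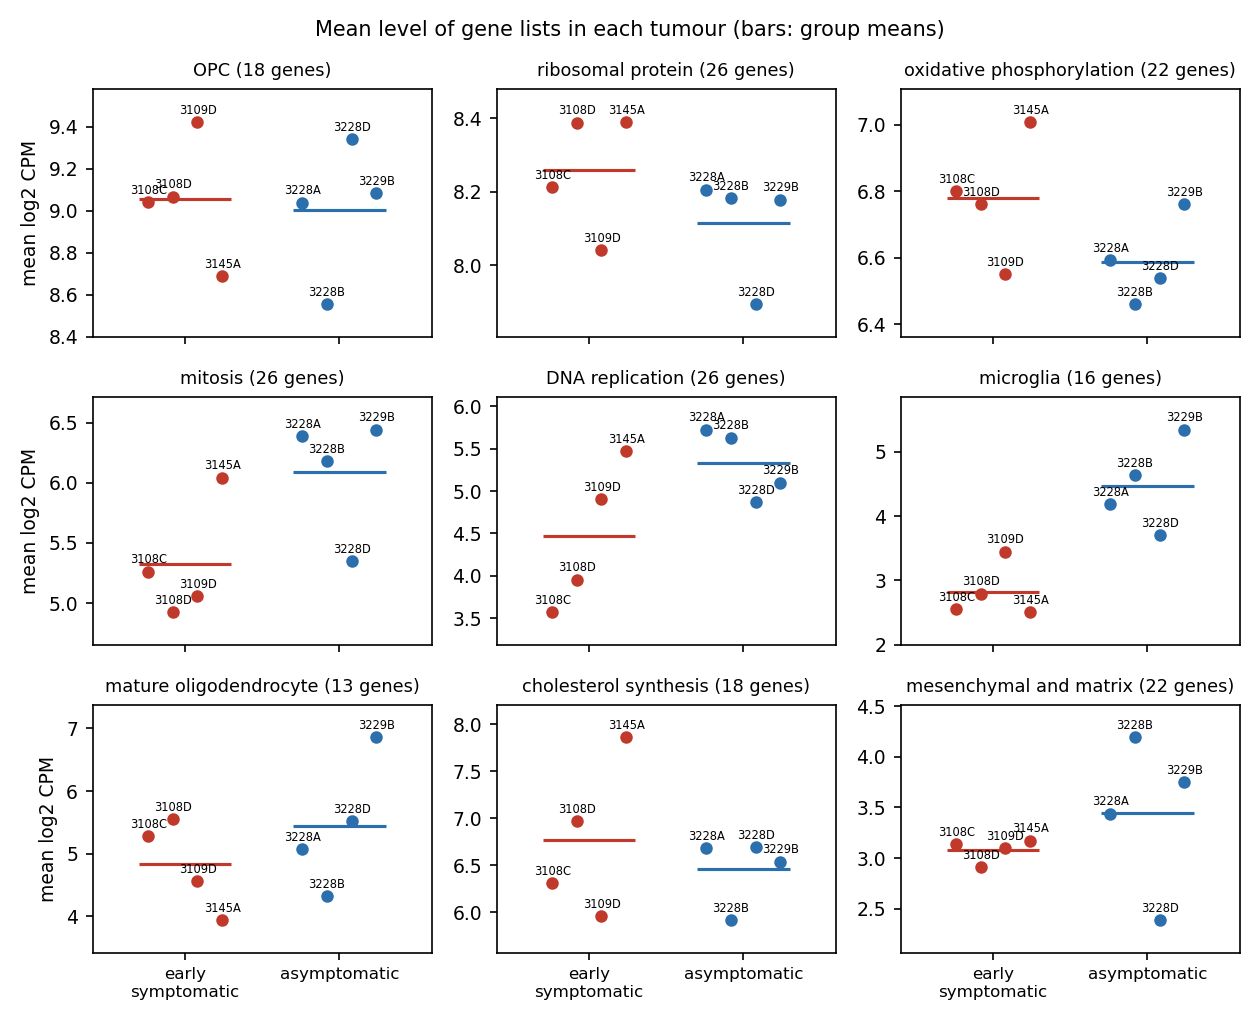
Each point is the mean log2 CPM of a gene list in 1 tumour, red for early symptomatic and blue for asymptomatic, with bars at the group means; the vertical axes differ between lists and do not start at 0. OPC, ribosomal and oxidative phosphorylation genes span less than 1 log2 unit over the 8 tumours, while microglia, oligodendrocyte and division genes span more and cholesterol synthesis genes are set apart in 3145A.

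The spread between single tumours was described next, across all genes. At a mean of at least 3 log2 CPM, the median SD of a gene was 0.29 log2 units over the 8 tumours, 0.31 within the early symptomatic and 0.21 within the asymptomatic group. The early symptomatic SD was the larger one for 7234 of 10355 genes (69.9%), and without 3108C its median was 0.24. Early symptomatic tumours were taken at 35 to 50 days and asymptomatic ones at 33 to 34, so stage and range of days cannot be told apart here. An SD of at least 1 over the 8 tumours was found for 151 genes, 1.46% of the 10355. Of these, 42 were more than 2-fold higher in surrounding than in glioma cells with an adjusted p under 0.05, which leaves 109. Within the stages, as the spread around the 2 group means, 112 genes had an SD of at least 1.

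For many genes 1 tumour lay apart from all the others. A gene was counted for a tumour when that tumour lay at least 2-fold above or below all other 7, among 9689 genes that reached 4 log2 CPM in at least 1 of the 8. Tumour 3108C lay above in 139 genes and below in 228. In 3145A it was 13 above and 43 below, in 3228B 17 and 29, in 3228D 0 and 38, and in 3229B 35 and 7. The remaining 3 tumours, 3108D, 3109D and 3228A, had at most 6 above and 9 below.

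**Figure D4:**
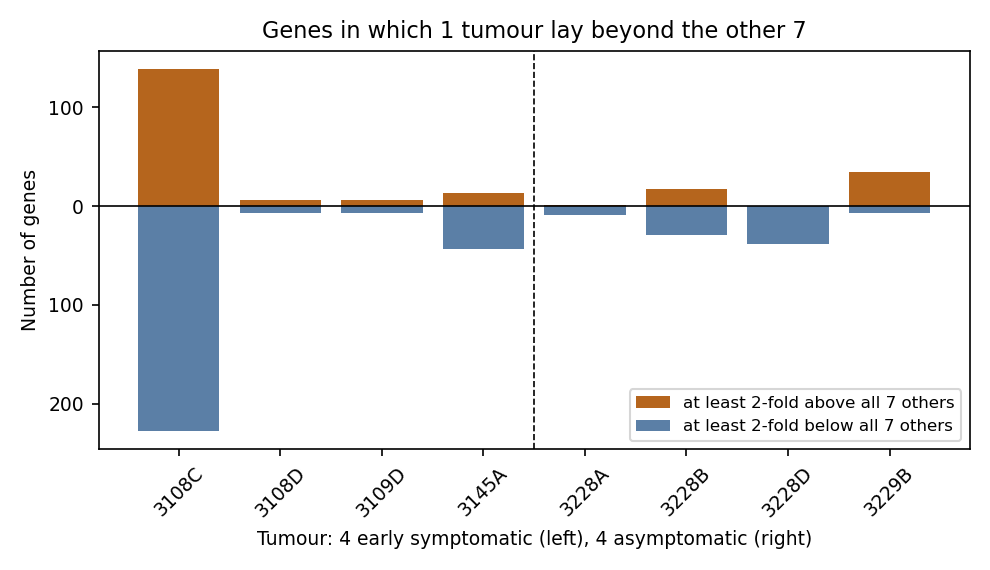
Bars give, for each tumour, the number of genes in which it lay at least 2-fold above (brown, upward) or below (blue, downward) all other 7 tumours. Tumour 3108C has 139 above and 228 below, and no other tumour has more than 43 in either direction.

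In 3108C the metallothioneins Mt1 and Mt2, small proteins that bind zinc and copper, had the largest gaps above all other tumours among genes with a name. Mt1 measured 1629.6 CPM in 3108C and between 56.7 and 106 CPM in the other 7. Mt2 measured 1019.8 CPM in 3108C and between 9.19 and 30.2 CPM in the others. In the surrounding cells of 3108C both were high as well, at 1321 CPM for Mt1 and 692 CPM for Mt2. Without 3108C the stage difference of Mt1 was 0.21 and that of Mt2 -0.08 on the log2 scale, against 2.63 and 3.69 with it.

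Both genes lie side by side on chromosome 8 and are known targets of the metal-sensing factor Mtf1, which binds metal response elements. The 250 bases before the start that RefSeq annotates are shown for both, on GRCm38.p6 and the plus strand, because these neighbours stood out together in 1 tumour. Capitals mark the element's core, searched as TGCACNC or TGCGCNC on both strands with overlaps allowed. Mt1 spans chr8:94178839-94179088 and Mt2 chr8:94172368-94172617.
Mt1: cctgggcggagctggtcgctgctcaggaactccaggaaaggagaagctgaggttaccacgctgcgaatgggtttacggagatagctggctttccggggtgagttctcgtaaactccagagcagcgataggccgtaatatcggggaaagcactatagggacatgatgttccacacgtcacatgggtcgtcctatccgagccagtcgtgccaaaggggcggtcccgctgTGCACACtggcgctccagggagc
Mt2: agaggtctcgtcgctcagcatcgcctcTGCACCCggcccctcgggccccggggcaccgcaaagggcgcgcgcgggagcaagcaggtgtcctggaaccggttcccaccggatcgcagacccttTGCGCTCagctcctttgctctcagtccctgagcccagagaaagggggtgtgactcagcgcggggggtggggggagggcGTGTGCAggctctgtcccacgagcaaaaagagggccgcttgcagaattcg
The window of Mt1 held 1 match and that of Mt2 3. Of 32851 promoter windows of this length, 21.4% held at least 1 match, so 1 match is common. In GENCODE release 21, 2 of the 3 Mt1 transcripts start past this window, 122 and 152 bases after the RefSeq start, and 1 of the 2 Mt2 transcripts starts 242 bases after it, so elements nearer to those starts are not shown. A match describes letters, not binding.

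Other genes set 3108C apart from both groups, named here after their values were seen. Nptx2, a secreted pentraxin of synapses, measured 151 CPM in 3108C and between 6.58 and 24.9 CPM elsewhere. Hif3a, a hypoxia-inducible factor subunit, measured 66.6 CPM against at most 4.28 CPM. The clock gene Per1 measured 174 CPM against 14.4 to 44.5 CPM, and Fgfr3, a receptor that glial precursors and astrocytes carry, 65.8 CPM against 1.61 to 13.2 CPM.

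Other genes were lowest in 3108C, and they too are named after their values were seen, apart from the panel gene Ccnd1. Cdc6 is 1 of the 24 identifiers with the largest SD, and was thus picked by its values as well. Ccnd1, the cyclin that takes cells out of G1, measured 211 CPM in 3108C and between 1114 and 1867 CPM in the other 7. Cdc6, which loads the replicative helicase, measured 0.743 CPM against 4.29 to 26.9 CPM. Slc1a3, a glutamate transporter of glia, measured 79.7 CPM against 328 to 464 CPM, and the sphingosine phosphate receptor gene S1pr1 2.88 CPM against 13.3 to 42.3 CPM. Cdkn1a and Pdgfra, given above, were highest in this tumour.

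Among the 24 identifiers with the largest SD over the 8 tumours, Xist came first with 5.15 log2 units. Of the rest, 6 identifiers belong to 5 symbols that occur under more than 1 identifier, namely St6gal2, Ide, Gcc2, Rims1 and both copies of Cacng7. When the identifiers of a symbol were added up, a step chosen after the data were seen, their SD dropped to between 0.28 and 0.53. Ide, the insulin-degrading enzyme, shows this: its listed identifier stood at 6.41, 4.61, 27.7 and 3.498 CPM against 53.9, 22.6, 24.7 and 0 CPM, while the sum ranged from 138 to 235 CPM. Expected counts divide reads between such copies by estimate, so these genes are uncertain. The retroposed copies Pgk1-rs7 (SD 2.66) and Cbx3-ps7 (2.53) are listed at 0 in 3108C and 3108D respectively, and share sequence with their parent genes.

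Microglial and macrophage genes followed 3228B and 3229B. Lyz2, lysozyme of macrophages, measured 9.56, 6.98, 37.2 and 4.41 CPM in early symptomatic and 37.5, 125, 10.1 and 104.5 CPM in asymptomatic gliomas, an SD of 1.81. Spp1, the secreted phosphoprotein osteopontin, had 61.9 and 52.95 CPM in 3228B and 3229B and at most 24.3 CPM elsewhere. Clec7a, a receptor for fungal glucans on activated microglia, had 30.9 and 44.4 CPM there and at most 21.96 CPM elsewhere. Lyz2 in surrounding cells lay between 178 and 1046 CPM, far above its glioma values, and it is one of the genes higher in surrounding cells.

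Myelin and neuronal genes had their own order of tumours. Mobp, a structural protein of myelin, measured 223, 236, 67.7 and 12.03 CPM in early symptomatic and 344, 91.3, 452 and 612 CPM in asymptomatic gliomas, an SD of 1.84 with 3145A lowest. Camk2a, the calcium and calmodulin-dependent kinase of neurons, measured 12.5, 80.8, 14.7 and 6.02 CPM against 63.1, 49.1, 117 and 228 CPM. Both were highest in 3229B and lowest in 3145A. Gfap, the filament protein of astrocytes, was lowest in 3145A too, at 12.9 CPM against 67.0 to 173 CPM in the other 7.

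A further set was led by 3228B, with 3228D at the other end. Vgf, a secreted neuropeptide precursor, measured 244 CPM in 3228B and 3.54 CPM in 3228D, with 3108C at 146 CPM. Myo5b, a motor of recycling endosomes, measured 184 CPM in 3228B, 2.45 CPM in 3228D and between 10.2 and 24.2 CPM elsewhere. Col18a1, a collagen of basement membranes, measured 66.2 CPM in 3228B, 0.928 CPM in 3228D and between 10.1 and 20.99 CPM elsewhere. Both tumours are asymptomatic and were taken on the same day, so the highest and lowest values of these genes lay within the asymptomatic group. What set these tumours apart was not tested. The hyaluronan receptor Cd44 (49.5 and 2.02 CPM) and Aldh1a3, an enzyme of retinoic acid synthesis (50.6 and 0.0843 CPM), were also highest in 3228B and lowest in 3228D; these were named after their values were seen.

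Serpina3n, A2m and Htra1, secreted proteases or protease inhibitors, were also among the 24. Htra1, a serine protease, was the one of the 24 without overlap between the stages, beside 2.41% of all genes higher without overlap. It measured 574, 141, 199.9 and 214 CPM against 24.2, 33.2, 35.3 and 139 CPM. The gap lay between 3108D and 3229B and was narrow, and the log2 fold change was 2.28 ± 0.63 with an adjusted edgeR p of 0.936, and 1.66 without 3108C. Serpina3n, a serine protease inhibitor of reactive glia, measured 1609.9, 709, 759.5 and 411 CPM against 212, 564, 41.6 and 198 CPM. It overlapped through 3228B, was lowest in 3228D, and had a log2 fold change of 1.78 ± 0.72, which was 1.29 without 3108C.

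**Figure D5:**
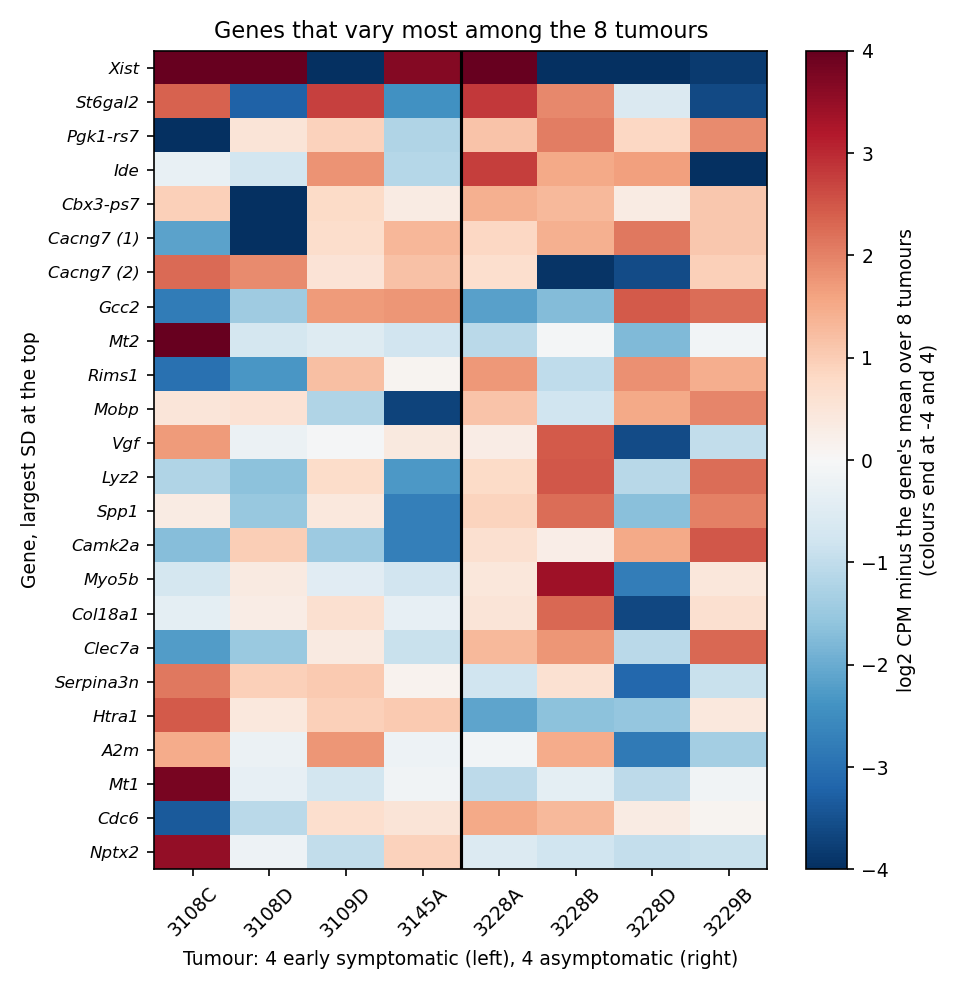
Rows are the 24 identifiers with the largest SD and columns the 8 tumours; colour gives log2 CPM minus the gene's mean over the 8, red above and blue below, with colours ending at -4 and 4. Mt1 and Mt2 are red in 3108C alone, Nptx2 is reddest there, Lyz2, Spp1 and Clec7a are reddest in 3228B and 3229B, and Vgf, Myo5b and Col18a1 are darkest blue in 3228D.

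Cholesterol synthesis genes set 3145A apart, the tumour with the fewest days of its group. All 18 had a log2 fold change above 0, the median was 0.45, 1 had an unadjusted p under 0.05, beside 4.91% of all genes, and 0 were called. The mean level was 6.31, 6.97, 5.96 and 7.86 log2 CPM in early symptomatic and 6.68, 5.92, 6.69 and 6.54 log2 CPM in asymptomatic gliomas. Without 3145A the median was -0.04. Hmgcs1, the synthase at the head of the pathway, measured 303, 733, 307 and 1132 CPM against 564, 289, 604 and 535 CPM. The groups overlapped, and its log2 fold change was 0.31 (-0.55 to 1.18). Fdps, which makes farnesyl diphosphate, had 62.3, 125, 45.2 and 256 CPM against 76.9, 43.6, 68.3 and 67.7 CPM, again with 3145A highest.

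Genes of this pathway are known targets of Srebf2, which binds sterol response elements. The element was searched as TCACNCCAC on both strands in the 250 bases before the RefSeq start of the 12 list members found in the table, and 1 of the 12 held it, Hmgcs1, beside 1.05% of 32851 windows. That window, chr13:119690101-119690350 on GRCm38.p6 and the plus strand, is shown with the match in capitals.
Hmgcs1: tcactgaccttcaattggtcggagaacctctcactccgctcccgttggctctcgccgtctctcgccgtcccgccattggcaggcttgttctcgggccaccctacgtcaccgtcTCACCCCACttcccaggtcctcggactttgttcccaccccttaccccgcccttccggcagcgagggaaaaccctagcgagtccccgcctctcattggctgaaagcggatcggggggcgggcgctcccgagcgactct
The match says nothing of the other 11 windows beyond their letters.

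The stage difference in glioma cells was also set beside that in surrounding cells of the same brains. The difference of the differences was tested in all 24 libraries, and edgeR called 0 of 18810 genes (0%), with 290 at an unadjusted p under 0.05; limma voom called 0. With the tumour code as a replicate block it called 0 too, with 494 at an unadjusted p under 0.05. That block pairs libraries by code, and for 3108D and 3109D the pairing is uncertain. Their deviations from the group means correlated by 0.075 and 0.0819 within the code, and by up to 0.6182 and 0.4265 with another code. A block with these codes exchanged was not tested. Selenom came closest among the 20 genes without overlap, with a log2 difference of 1.12 in glioma cells against 0.08 in surrounding cells and an interaction of 1.03 ± 0.34. Slc1a4 had 0.75 and Lrtm2 1.80 in surrounding cells, next to 0.91 and 2.52 in glioma cells. Ccnd1 was lowest in 3108C in both populations, at 202 CPM in glioma and 135 CPM in surrounding cells on the scale of the 24 libraries.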

How the data were processed

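Sorted cells of 12 mouse gliomas gave 24 libraries, prepared from polyA RNA (CORALL kit) per the labels' protocols. The authors deposited expected counts per gene. The submitters' processing notes name STAR 2.7.5c, RSEM 1.3.1 and GRCm38. The annotation release, strand setting and use of molecular identifiers are not given in the sources used here, so overlapping and antisense genes are uncertain. Expected counts of 55938 genes were rounded. Coordinates are from GENCODE release 21 (98.6% of identifiers found) and promoters from RefSeq.

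The 12 glioma libraries, 4 per stage, entered 1 edgeR 4.0.16 fit under R 4.3.3 (TMM, filter at a minimum of 10 counts, robust quasi-likelihood, group means only). The late symptomatic gliomas share the estimate of the spread. Benjamini-Hochberg adjustment covered every gene of the fit. Intervals (95%) come from the unshrunken coefficient and its standard error, scaled by the posterior quasi-dispersion. For 10 genes with all counts of 1 stage at 0 no interval was made. Totals of the 8 libraries lay between 9492796 and 14231701 counts, so precision was lowest for weakly expressed genes. CPM are TMM scaled over the 12 glioma libraries, and SDs are of log2 CPM with a prior count of 2. The fit was tested on simulated counts. Alternatives were DESeq2 1.42.0, limma 3.58.1 voom, other scalings, filters, libraries and covariates, and each tumour left out.

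Named genes were the called genes, the 10 genes per direction described above as not overlapping, the 24 largest SDs, the 6 narrowest intervals, a panel of 22 (1 is not reported here), and 2 members per list with the smallest p. Predicted, mitochondrial and receptor segment genes were left out. The 31 lists cover microglia, monocyte and macrophage, erythrocyte, endothelial, astrocyte, pericyte and smooth muscle, neuron, fibroblast and meningeal, OPC, mature oligodendrocyte, neural progenitor, T and NK cell, B cell, neutrophil, ependymal and choroid plexus, mitosis, DNA replication, G1 and cell cycle control, p53 pathway, PDGF and MAPK response, hypoxia, glycolysis, cholesterol synthesis, MHC class I, interferon response, ribosomal protein, MHC class II, oxidative phosphorylation, dissociation and immediate early, mesenchymal and matrix, and sex genes. Members and lists were chosen with earlier results of these data known.

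The pairing of glioma and surrounding libraries comes from the labels, which give both the same code. Deviations from the group means correlated by 0.075 to 0.61 within the 8 codes, and in 6 of 8 the own code correlated best, the exceptions being 3108D and 3109D.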

Additional observations from a re-analysis of the deposited data

Results flagged for a closer look

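In each group of 4 the highest or lowest tumour was compared with the gap that Dixon's test allows, for 125 named genes in 250 groups. A gap past the 95% critical value was found in 16 of them. For genes not chosen by their values, chance flags about 1 in 20 groups. That rate does not hold here: the named genes include 24 picked for a large SD and 20 for no overlap in these tumours. The flags thus describe these values and are no test. Tumour 3108C was the one apart in 5. It was high in Mt1 (1629.6 CPM, the other early symptomatic tumours 70.4 to 106), Mt2 (1019.8 CPM, others 18.6 to 22.1), the sodium pump subunit Atp1b2 (2156 CPM, others 1219 to 1289.6) and Spry1 (559 CPM, others 338 to 353), and low in Ccnd1 (211 CPM, others 1347 to 1550.2).

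Of the other early symptomatic tumours, 3108D was low in Cbx3-ps7 (0 CPM), 3109D was low in Rpl18 (142 CPM, others 175 to 180.3) and 3145A was high in Hjurp (133 CPM, others 106 to 110.02). Among asymptomatic tumours 3228A was high in Hjurp (207 CPM, others 164 to 169.7) and low in the matrix enzyme gene Lox (1.58 CPM, others 2.87 to 3.17). It was also low in the Y-linked gene Uty (0 CPM, others 26.7 to 40.2), and was the only asymptomatic tumour with high Xist. Tumour 3228B was low in Rims1 (6.68 CPM, others 37.8 to 48.9), which occurs under more than 1 identifier. Tumour 3228D was low in Kif2c (17.9 CPM, others 38.4 to 43.0) and Peli1 (119.5 CPM, others 135 to 138). Tumour 3229B was low in the listed identifier of Ide (0 CPM, others 22.6 to 53.9) and high in the choroid plexus gene Ttr (23.8 CPM, others 0 to 0.0879).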

How the results depend on the processing

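The count of called genes stayed at 0 under every alternative run except limma voom, which called 1 (Lrtm2). With each of the 12 tumours left out in turn it was 0 throughout, and without both 3108C and 3145A, an alternative added after the data were seen, it was 0 with 422 genes at an unadjusted p under 0.05. The number at an unadjusted p under 0.05, 810 with all tumours, was 493 without 3108C, 538 without 3228A and 1528 without the late symptomatic 3057E. It was 1855 by limma voom, 1321 with the 8 libraries only, 1808 with the microglia covariate and 1795 with the mitosis covariate. The interaction with surrounding cells was 0 in every alternative, the replicate block included, although the pairing in that block is uncertain for 3108D and 3109D. The count inside 2-fold was 3648 at a limit of 1.5-fold, and with each tumour left out it lay between 8126 and 10028. The count of genes with an SD of at least 1 was 38 at a mean of at least 5 log2 CPM, and 122 to 173 with a tumour left out. Over the 125 named genes, 77 of 3107 alternative values had the other sign, in 30 genes. List medians kept their sign with other size factors. Without 1 tumour, sign changed for cholesterol synthesis (-0.04 without 3145A), mature oligodendrocyte (0.02 without 3229B), fibroblast and meningeal (-0.11 without 3108C), glycolysis (-0.01 without 3145A) and p53 pathway genes (-0.02 without 3228D). MHC class II was at -0.61 without 3145A and -1.09 at a filter of 1 count, and was below 0 in many other settings. Hypoxia, dissociation and ependymal medians, near 0 in the main fit, changed sign in several settings, and the ependymal median was 1.91 by limma voom. MHC class I was at -0.13 without both 3108C and 3145A. With the microglia covariate the medians were -0.28 for ribosomal, -0.22 for glycolysis, -0.21 for fibroblast and meningeal, 0.54 for monocyte and macrophage and 0.02 for microglia genes. With the mitosis covariate they were -0.05 for OPC, 0.14 for mesenchymal and matrix, 0.0046 for neural progenitor and 0.02 for mitosis genes. With the sex term they were 0.04 for monocyte and macrophage and 0.11 for sex genes, and at a filter of 50 counts 0.14 for neuron genes. The causes were not tested. With 4 tumours per group, a mean under 1 log2 CPM leaves intervals too wide to exclude 2-fold for nearly all genes.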

Other observations

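Other lists not described above held 0 called members. At an unadjusted p under 0.05, beside 4.91% of all genes, were 5 of 14 astrocyte, 5 of 19 G1 and cell cycle control, 5 of 22 mesenchymal and matrix and 4 of 21 hypoxia genes, in both directions in each list. Astrocyte markers had a median of -0.35 with 2 of 14 higher and 3 lower at that p: Atp1b2 was higher without overlap (0.83 ± 0.24, and 0.57 without 3108C) and the gap junction gene Gja1 lower (-2.34 ± 0.61, from 0.700 CPM in 3145A to 27.1 CPM in 3229B). Among G1 and cell cycle control genes (median -0.28) Cdkn2b, a neighbour of Cdkn2a that inhibits cyclin D kinases, was higher in every early symptomatic tumour, at 28.1, 33.7, 32.5 and 69.5 CPM against 23.6, 28.05, 16.7 and 19.0005 CPM (log2 fold change 0.91 ± 0.28). Glycolysis genes had a median of 0.09, and Aldoc, the brain aldolase, was higher without overlap (0.91 ± 0.32, and 0.72 without 3108C). Mesenchymal and matrix genes had a median of -0.63, which was -0.13 without 3228B and 0.14 with the mitosis covariate. Atf3, a stress-induced factor, was lower (-1.99 ± 0.57), in a dissociation and immediate early list whose median was 0.02. Gja1 and Atf3 are among the genes higher in surrounding cells, with glioma minus surrounding values of -3.88 and -4.59 on the log2 scale. In surrounding cells the stage differences were -1.23 for Gja1 and -0.15 for Atf3. The part of surrounding cells in the glioma values of these genes was not tested.

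The remaining medians were -1.04 for monocyte and macrophage, -0.82 for endothelial, -0.92 for pericyte and smooth muscle, 0.40 for fibroblast and meningeal, -0.19 for neuron, -0.29 for neural progenitor, -1.9999 for the 1 tested B cell gene, -0.04 for ependymal and choroid plexus, 0.11 for p53 pathway, 0.03 for hypoxia, 0.34 for interferon response, 0.34 for MHC class I, 0.15 for MHC class II and -1.59 for sex genes. Without 3145A the medians of interferon response, MHC class I and MHC class II genes were 0.01, 0.06 and -0.61. Without 3229B that of pericyte and smooth muscle genes was -0.08.

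Median levels per chromosome, a look added after the data were seen, were close together in the 8 tumours. Each autosome's median deviation from the median of the 8 lay between -0.06 and 0.06 log2 units, and that of the X chromosome between -0.15 and 0.08. In the late symptomatic tumour 3054B the genes of chromosome 1 had a median of 0.49, the largest autosomal value among the 12 gliomas.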
